A study of Mus musculus with 20 samples.

Results

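The livers of 5 female C3H/HeN mice (C3) were compared with those of 5 female C57BL/6N mice (B6), which made up 10 of the 20 livers of the study, and the other 10 came from males of the same strains. All were inbred mice from Taconic Farms aged 20 weeks, with no treatment or engineered allele named in the labels, and the methods give single housing and killing over a window of a few hours in the morning. Total RNA came from the left lateral lobe, so that every cell type of the lobe contributed. The comparison covers the 13259 autosomal genes that passed the filter on low counts, of 13704 genes tested in all. Each library came from 1 mouse, and the 10 female libraries lay in 3 sequencing pools that each held both strains.

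Hepatocytes make most of the plasma proteins, handle lipids, amino acids and foreign compounds, and change their gene expression along the lobule. Those next to the central vein receive Wnt signals and make glutamine synthetase and many cytochrome P450 enzymes, and those next to the portal tract run the urea cycle. Inbred strains also differ in gene families that expanded by duplication, among them major urinary proteins, histocompatibility antigens, interferon-induced proteins and enzymes of foreign compound metabolism.

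Female libraries held 28933836 to 46835745 counts in B6 and 30310638 to 43724072 in C3, so that 3 counts, taken as the limit of detection, corresponded to 0.0641 to 0.104 CPM (counts scaled to the total of the library). Log2 differences come from the fit, which also applied TMM factors of 1.01 to 1.09 in B6 and 0.952 to 1.03 in C3, so that they differ slightly from the ratio of mean CPM. Xist had 12349 to 25729 counts in all 10, and the Y-linked Ddx3y and Kdm5d at most 1. H2-Ea-ps, a class II gene that the B6 haplotype does not transcribe, had no count in any B6 female and 151 to 398 counts in every C3 female, as the strain labels require. Hepatocyte markers dominated every library, with albumin (Alb) at 81118 to 106540.0 CPM in B6 and 115300.0 to 131580.0 CPM in C3. Libraries of a strain correlated at 0.974 to 0.993 across genes and libraries of different strains at 0.941 to 0.962. On the 500 most variable autosomal genes the first principal component took 81.3% of the variance and parted the strains, with scores of -36.6 to -30.9 in B6 and 31.5 to 35.0 in C3. The second took 6.75% and followed the sequencing pools, with scores of -12.5 to -9.95 in pool 3, 1.71 to 3.70 in pool 2 and 8.82 to 11 in pool 1, and pool was a term of the model.

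Of the 13259 autosomal genes, 1260 (9.5%) differed between the strains at an edgeR quasi-likelihood adjusted p under 0.001 and a log2 difference over 0.5, and these are called genes in what follows. C3 was higher for 620 (4.68%) and lower for 640 (4.83%), and the median log2 difference over all autosomal genes was 0.02. The called genes differed by a median of 1.035 on the log2 scale, 659 by more than 1 and 291 by more than 2. In 1011 of them (80.2%) the 5 livers of one strain all lay above the 5 of the other, against 13.2% of all autosomal genes tested. The direction was the same within each of the 3 pools for 1257 called genes (99.8%). They were called from these same libraries, so that such agreement follows from the choice and is no separate support. Together they held 10.1% of the counts in B6 and 9.57% in C3. Genes averaging 1 to 10 CPM were called most often (14.1%), and among the 111 genes at 1000 CPM or more 13 were called, 3 higher and 10 lower in C3.

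The genes furthest apart were counted in one strain and at or under the limit of detection in the other, which held for 22 called genes higher in C3 and 31 higher in B6. C1s2, a paralogue of the serine protease C1s of the classical complement pathway, measured 30.6, 35.4, 37.5, 20.2 and 21.1 CPM in the C3 livers and at most 0.0346 CPM in B6, at least 360.1-fold higher (adjusted p = 5.1e-15). Its neighbour C1rb, a paralogue of C1r, measured 9.996, 8.03, 8.78, 10.1 and 10.6 CPM in C3 and 0.0214, 0.131, 0, 0.0550 and 0.0865 CPM in B6, with a log2 difference of 7.38 (SE 0.87) and an adjusted p of 2.4e-06. Both were present in every C3 liver and nearly uncounted in B6, whereas C1s1 and C1ra, the main liver genes of the pair, were not called (-0.22 and 0.02). C1s1 was nonetheless lower in every C3 liver, at 440 to 537 CPM in B6 and 402 to 436 CPM in C3 with the TMM factors. C1ra overlapped. Others at least 14.9-fold higher in C3 were Ifi202b, Ifi44l, Tmc5, Gm15698, Rprl3 and the kallikrein genes Klk1b22 and Klk1b24. Trim12a, a tripartite-motif gene of the Trim5 cluster, measured 11.8, 10.9, 14.1, 16.2 and 15.4 CPM in B6 and at most 0.0232 CPM in C3, at least 167-fold lower (adjusted p = 1.0e-14). The odorant receptor locus Olfr1033, at least 178-fold lower, Fam19a2, 4930481A15Rik, Cebpe, Ncmap, Olfr1034, Mup15, Lncbate1 and 1700030C10Rik were likewise at or under 3 counts in all C3 females. Gpr179 had a log2 difference of 11.04 (SE 1.99), and its C3 values ran from 2.74 to 170 CPM (167, 2.74, 15.4, 3.80 and 170.2), and the call was lost when any 1 of 5 of the libraries was left out (edgeR adjusted p up to 0.0013). Reads of both strains were aligned to the B6-derived mm9 genome, and what that did to counts in C3 was not tested.

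**Figure D1:**
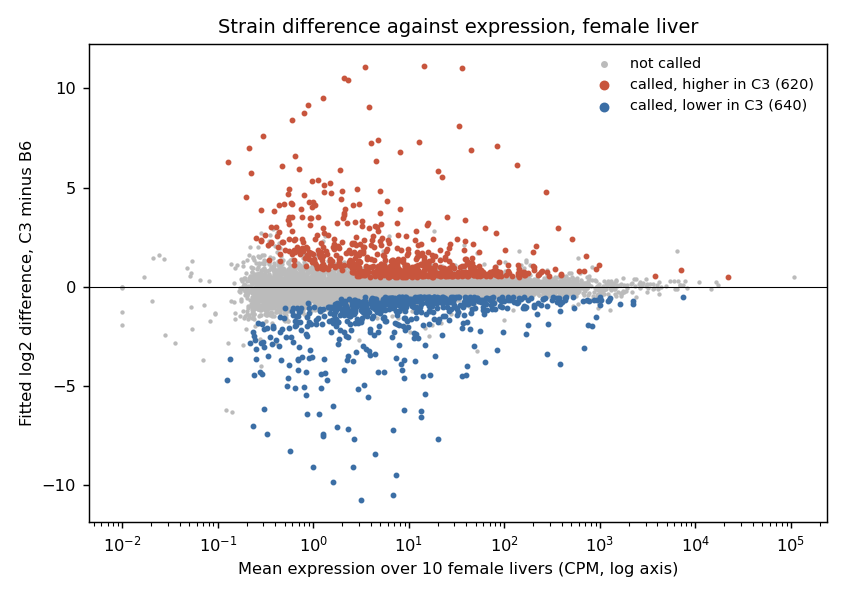
Fitted log2 difference between C3 and B6 female livers against mean expression in CPM (log axis) for the 13259 autosomal genes tested. Called genes, 620 higher and 640 lower in C3, are coloured, and the 13 called genes at 1000 CPM or more lie close to 0 compared with those of low expression.

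Among the called genes with the highest mean CPM, transferrin (Trf), the iron carrier of plasma, measured 22551, 23315, 16416, 15606 and 14696 CPM in B6 and 23460.0, 29599, 31041, 21355 and 19068 CPM in C3. Its log2 difference was 0.51 (SE 0.07) with an adjusted p of 1.9e-05, although the ranges overlapped, and the size fell below the threshold, at 0.465 to 0.496, without B6 replicates 1 or 5 or C3 replicates 1 or 4. Apoa1, the main protein of high-density lipoprotein, stood at 5185 ± 1355 CPM (mean ± SD, n = 5) in B6 and 8866 ± 2016.1 CPM in C3, a log2 difference of 0.84 (SE 0.11). Liver fatty acid-binding protein Fabp1 was 1.45-fold higher in C3, with C3 replicate 2 inside the B6 range and a call that was lost without any 1 of 5 libraries (log2 differences of 0.45 to 0.52), and Elovl5, an elongase of polyunsaturated fatty acids, 2.12-fold. The remaining 11 of the 15 called genes with the highest mean CPM were lower in C3, among them Cyp2e1, Adh1, Mup3, Aldh1a1, Glul, Cyp2c50, Pon1, Akr1c6 and H2-K1. The log2 differences lay between -0.52 for Akr1c6 and -0.93 for Cyp2c50, and in none of the 11 did the 5 C3 livers overlap the 5 of B6 in CPM, whereas with the TMM factors of the fit those of Glul overlapped. Akr1c6, Aldh1a1 and Cyp2e1 lay close to the thresholds, and their calls were lost without 2, 7 and 1 of the libraries in turn. Pon1, the serum paraoxonase carried by high-density lipoprotein, measured 1288 ± 236 CPM in B6 and 764 ± 154 CPM in C3.

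Many genes of the hepatocytes around the central vein were lower in C3. Of 22 tested, 12 were called (54.5%, against 9.5% of all autosomal genes), every one lower in C3, and the median of the list was -0.673. Slc1a2, a glutamate transporter confined to this zone in the liver, measured 272, 310.1, 264, 220.2 and 344 CPM in B6 and 49, 47, 57.8, 53.4 and 49.8 CPM in C3. The 2 ranges stood far apart, with a log2 difference of -2.38 (SE 0.11) and an adjusted p of 1.2e-11. Oat, the ornithine aminotransferase that leads ornithine into glutamate, measured 1450.2, 1902, 1333, 571 and 1328 CPM in B6 and 242, 538, 346, 222 and 261 CPM in C3. B6 replicate 4 came close to the highest C3 liver, and the log2 difference was -1.97 (SE 0.19) with an adjusted p of 1.5e-07. Glul, the glutamine synthetase that captures the last ammonia before blood leaves the lobule, measured 1293, 1191, 1348, 1804 and 1971 CPM in B6 and 1004, 504, 611, 1184 and 1099.5 CPM in C3. The lowest B6 liver lay just above the highest C3 liver, but with the TMM factors of the fit the ranges overlapped, at 1100.1 to 1862 and 488.7 to 1244 CPM. The log2 difference was -0.75 (SE 0.12) with an adjusted p of 0.0001. Part of the Glul locus overlaps another gene on its strand, and reads shared by both were not counted.

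The cytochrome P450 enzymes of the central zone were lower as well. Cyp2e1, which oxidizes ethanol and other small molecules, measured 8028, 7302, 9510.5, 8778 and 10860.0 CPM in B6 and 5666, 5102, 5666, 6388 and 6299 CPM in C3, so that no C3 liver reached the lowest B6 liver (log2 difference -0.53, SE 0.08, edgeR adjusted p = 6.2e-05), although the log2 difference without B6 replicate 3 was -0.493. Cyp1a2, which acts on caffeine and aromatic amines, measured 422, 492, 599, 503 and 578 CPM in B6 and 253, 301, 243, 296 and 331 CPM in C3, again without overlap (log2 difference -0.79, SE 0.09, edgeR adjusted p = 1.6e-06). Cyp2c50 fell by 0.93, Cyp2c37 by 0.72 and the retinal dehydrogenase Aldh1a1 by 0.67 on the log2 scale. Lhpp, a phosphatase gene, fell by 1.40, the organic cation transporter Slc22a3 by 1.76, the dicarboxylate transporter Slc13a3 by 0.70 and the ammonium transporter Rhbg by 0.68. The 10 members that were not called included known Wnt target genes. Lgr5 had a log2 difference of -0.72 (SE 0.16) and an adjusted p of 0.0023, and the values were -0.55 for Nkd1, -0.05 for Axin2, -0.37 for Sp5, -0.33 for Notum, -0.02 for Tbx3 and 0.43 for Tcf7. Summed over the list, expression was 16360 to 20320 CPM in the B6 livers and 9868 to 11470 CPM in the C3 livers. The number called was 10 to 12 when any liver was left out, 8 with the female libraries fitted alone, 6 without the pool term and 5 when the test was set against the fold threshold itself. In a whole lobe, fewer cells of a type and less RNA per cell cannot be told apart.

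**Figure D2:**
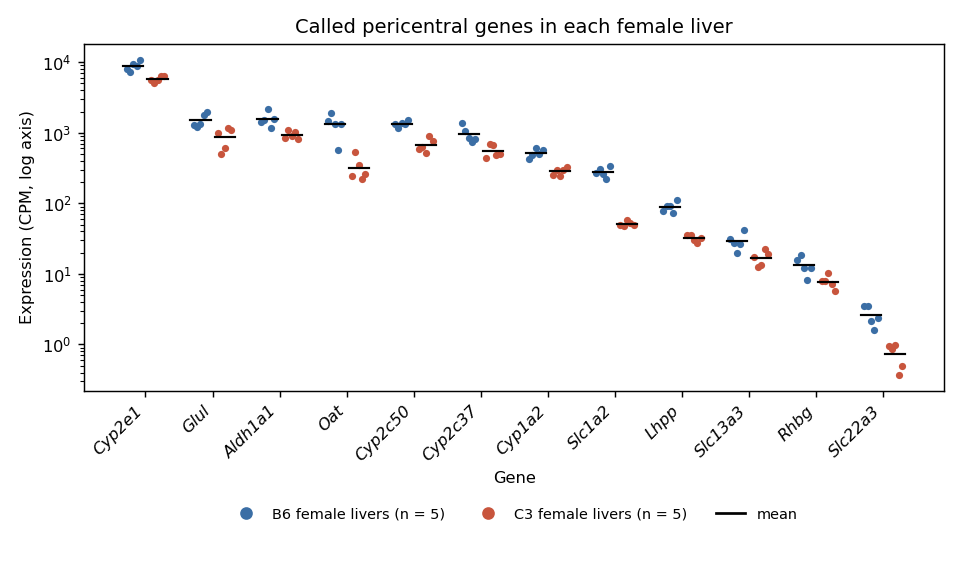
Expression in CPM (log axis) of the 12 called pericentral genes in each of the 5 B6 and 5 C3 female livers, with 1 point a liver and a bar at the mean. C3 points lie below B6 points for all of these genes except Slc13a3 and Rhbg, where they overlap. Slc1a2 shows the widest gap, with 220.2 to 344 CPM in B6 and 47 to 57.8 CPM in C3.

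The sequence before the start site of Slc1a2 is shown because Slc1a2 had the largest difference of the list and its promoter held a TCF/LEF motif, the site through which Wnt signals work. The letters ATCAAAG were searched on both strands in the RefSeq promoters (GRCm38.p6, from 250 bases before to 50 after the start), and 10 of the 12 called genes had an entry. Of the 10, Slc1a2 held the motif, and among the 16 of 22 tested pericentral genes with an entry so did Sp5, which was not called. Of all 32851 promoters 3.73% held it. The window is chr2:102706188-102706487 on the plus strand, 5′ to 3′, with the motif in capitals at -207 from the start:
Slc1a2: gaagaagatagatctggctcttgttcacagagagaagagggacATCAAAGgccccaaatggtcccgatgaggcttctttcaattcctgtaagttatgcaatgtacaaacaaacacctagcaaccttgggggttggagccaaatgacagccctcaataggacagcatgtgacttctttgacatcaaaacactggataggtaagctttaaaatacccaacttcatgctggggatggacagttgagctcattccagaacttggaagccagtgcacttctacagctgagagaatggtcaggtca
No match in the other windows says only that these letters are not in them, and the binding of any factor was not measured.

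Genes of the portal side were called about as often as genes in general. Of 20 urea cycle and periportal genes, 2 were called (10%), with the lipid droplet enzyme Hsd17b13 lower (-0.92, SE 0.15) and the mitochondrial aldehyde dehydrogenase Aldh1b1 higher (0.74, SE 0.13). Cps1, the entry enzyme of the urea cycle, had a log2 difference of -0.13 (SE 0.10), and Ass1, Arg1 and Asl had -0.27, -0.06 and -0.10. Albumin, at 0.49 (SE 0.09), passed the p threshold but not the threshold on size. Summed over the list, expression was 99920 to 119300 CPM in B6 and 129300 to 144100 CPM in C3. The strains did not overlap, also with the TMM factors, and albumin held most of the sum. In the breakdown of amino acids 8 of 55 genes were called (14.5%, beside 9.5% of all autosomal genes), 6 of them lower in C3. Beside Oat these included Ahcy (-0.69), which clears S-adenosylhomocysteine, while Ftcd of histidine breakdown was higher (0.53). The arginine transporter Slc7a2 measured 572, 740.1, 598, 325 and 474 CPM in B6 and 143, 268, 278, 153 and 261 CPM in C3, a log2 difference of -1.23 (SE 0.16), without overlap.

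Of 61 cytochrome P450 genes of families 1 to 4, 17 were called (27.9%, beside 9.5% of all autosomal genes). Of these, 6 were higher and 11 lower in C3, so that paralogues of a subfamily moved in opposite directions. Cyp2a22 measured 89.5, 101, 119, 38.1 and 95 CPM in C3 and 0.705, 0.871, 0.311, 1.21 and 0.721 CPM in B6, a log2 difference of 6.90 (SE 0.30, edgeR adjusted p = 2.8e-12). Cyp2c44 went the other way, with 402, 358, 556, 612 and 615 CPM in B6 and 51.3, 38, 36.7, 48.1 and 53.7 CPM in C3, a log2 difference of -3.39 (SE 0.08). Within the same subfamily Cyp2c39 was higher in C3 (4.78, SE 0.22) and Cyp2c50 and Cyp2c37 lower. Cyp3a25 was 1.88-fold higher in C3. Summed over the 61 genes, expression was 28820 to 34560 CPM in B6 and 25450 to 27020 CPM in C3, and all 5 B6 livers lay above all 5 of C3. With the TMM factors of the fit the ranges overlapped, at 26616 to 33704 and 24732 to 28132 CPM, and 3 B6 livers lay above all of C3. Outside these families, Cyp46a1, the cholesterol 24-hydroxylase best known from neurons, measured 181, 163, 185, 126 and 171 CPM in C3 and 0.705, 0.827, 2.59, 1.15 and 1.47 CPM in B6. That made it 138-fold higher in C3 livers (log2 difference 7.11, SE 0.22, edgeR adjusted p = 2.0e-14).

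The other enzymes of drug metabolism also held both directions. Ces1b, a carboxylesterase, measured 87, 100.03, 89.2, 82.3 and 79.4 CPM in B6 and 679, 719, 708, 555 and 542 CPM in C3, with no overlap and a log2 difference of 2.94 (SE 0.06, edgeR adjusted p = 2.6e-16). In all 5 of 15 carboxylesterases were called (33.3%, beside 9.5% of all autosomal genes). Ces1e (0.78) and Ces2a (0.76) were also higher and Ces1g (-0.54) and Ces2c (-2.02) lower. Of 13 sulfotransferases 6 were called (46.2%). Sult1c2 was higher (1.14), and the neighbours Sult2a1, Sult2a2, Sult2a5 and Sult2a6 were higher by 2.30 to 3.14 on the log2 scale. The 4 neighbours had overlapping ranges, with Sult2a2 at 3.03, 7.53, 6.71, 0.852 and 0.259 CPM in B6 and 29.1, 23, 27.2, 6.03 and 14 CPM in C3, and the calls of Sult2a5 and Sult2a6 were lost without any 1 of 7 and 9 libraries. Sult2a7, in the same cluster, measured 126, 71.8, 104, 31.4 and 49.5 CPM in B6 and 1.65, 3.71, 2.15, 4.86 and 3.12 CPM in C3, so that it fell by 4.43. Sult2a8, the sulfotransferase with the highest CPM, had a log2 difference of -0.43 (SE 0.07) and was not called. Of 22 glutathione S-transferases 6 were called (27.3%), among them Gstm1 (-0.66), Gstm2 (-0.67), Gstm6 (-0.80) and Gsta2 (-2.32) lower in C3. Of 18 UDP-glucuronosyltransferases, Ugt2b5 (-0.73) and Ugt3a1 (-1.18) were called (11.1%, beside 9.5% of all autosomal genes), both lower.

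The called alcohol dehydrogenase genes were lower in C3. Adh1 measured 2506, 2325, 3461, 3735 and 2879 CPM in B6 and 1804, 1342, 1294, 1556 and 1549 CPM in C3, without overlap (log2 difference -0.90, SE 0.08, edgeR adjusted p = 1.0e-07). Its neighbours Adh4 (-0.68) and the pseudogene Adh6-ps1 (-6.59) were lower too. Of 23 alcohol and aldehyde dehydrogenases 6 were called (26.1%, beside 9.5% of all autosomal genes), 5 lower. Tpmt, the methyltransferase that inactivates thiopurine drugs, measured 25.4, 21.5, 25.5, 30.8 and 29 CPM in B6 and 76.4, 79.6, 78.8, 89.7 and 90.7 CPM in C3, a log2 difference of 1.73 (SE 0.06, edgeR adjusted p = 3.6e-14). Among efflux and uptake transporters, 5 of 39 ABC transporters (12.8%) and 3 of 21 Slc22 and Slco transporters (14.3%) were called, beside 9.5% of all autosomal genes. Abca3 (1.74), Abcb1a (1.36), Abca1 (0.60) and Slc22a7 (1.05) were higher in C3, and Abcc6 (-1.09), Abcg3 (-0.57) and Slc22a28 (-1.88) lower. Many of these enzymes have close paralogues, and since read pairs mapping to several places were not counted, how counts fell among near-identical copies is uncertain.

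Solute carriers outside the Slc22 and Slco families were called for 30 of 210 genes (14.3%, beside 9.5% of all autosomal genes), 16 higher and 14 lower. Besides Slc1a2 and Slc7a2, the thyroid hormone and aromatic amino acid transporter Slc16a10 was lower (-0.68, SE 0.10), without overlap. The following 5 were named after their values were seen. The citrate transporter Slc13a5 measured 1.49, 2.07, 0.657, 1.13 and 1.12 CPM in B6 and 2.24, 3.71, 5.49, 4.77 and 4.09 CPM in C3, a log2 difference of 1.73 (SE 0.20). The concentrative nucleoside transporter Slc28a1 measured 0.192, 0.174, 0.276, 0.302 and 0.288 CPM in B6 and 0, 0.0229, 0, 0 and 0 CPM in C3, at least 3-fold lower. The zinc transporter Slc39a5 (-2.01, SE 0.32) and the glutamine transporter Slc1a5 (-1.68, SE 0.23) were lower and the fructose transporter Slc2a5 higher (1.37, SE 0.15).

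Of 30 hydroxysteroid dehydrogenases and aldo-keto reductases 6 were called (20%, beside 9.5% of all autosomal genes), 5 lower in C3. Hsd17b6, which oxidizes androgens and retinol, measured 236, 244, 339, 221 and 204 CPM in B6 and 309.6, 404, 476, 459 and 482 CPM in C3 (log2 difference 0.87, SE 0.14), and the highest B6 liver lay above the lowest C3 liver. Akr1c14 (-0.60, SE 0.11), Akr1c6 and Hsd17b13 were lower. Akr1c6 was also the single called gene of 26 (3.85%) in bile acid synthesis and transport. In smaller families Fmo4 was the single called gene of 5 flavin monooxygenases (0.96, SE 0.17) and Car11 that of 11 glycoside and carbonic anhydrase enzymes (1.70, SE 0.23). Nothing is read from these single calls against 9.5%.

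The gene with the highest mean CPM in a list was often not a called one. Apoe of the apolipoproteins (0.10), Serpina3k of the serpins (0.09), the fibrinogen chain Fgb (0.28), Mat1a of amino acid metabolism (-0.09), Ces1c of the carboxylesterases (-0.38), Mgst1 of the glutathione S-transferases (-0.24) and the uptake carrier Slco1b2 (-0.25) all differed by less than 0.5 on the log2 scale. So did catalase (Cat, -0.11), the bile salt pump Abcb11 (0.10), Scp2 of bile acid synthesis (0.05) and beta-2 microglobulin (B2m, -0.26), the light chain of class I molecules. For Ces1c and Slco1b2 every B6 liver nonetheless lay above every C3 liver, whereas the strains overlapped for the others.

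**Figure D3:**
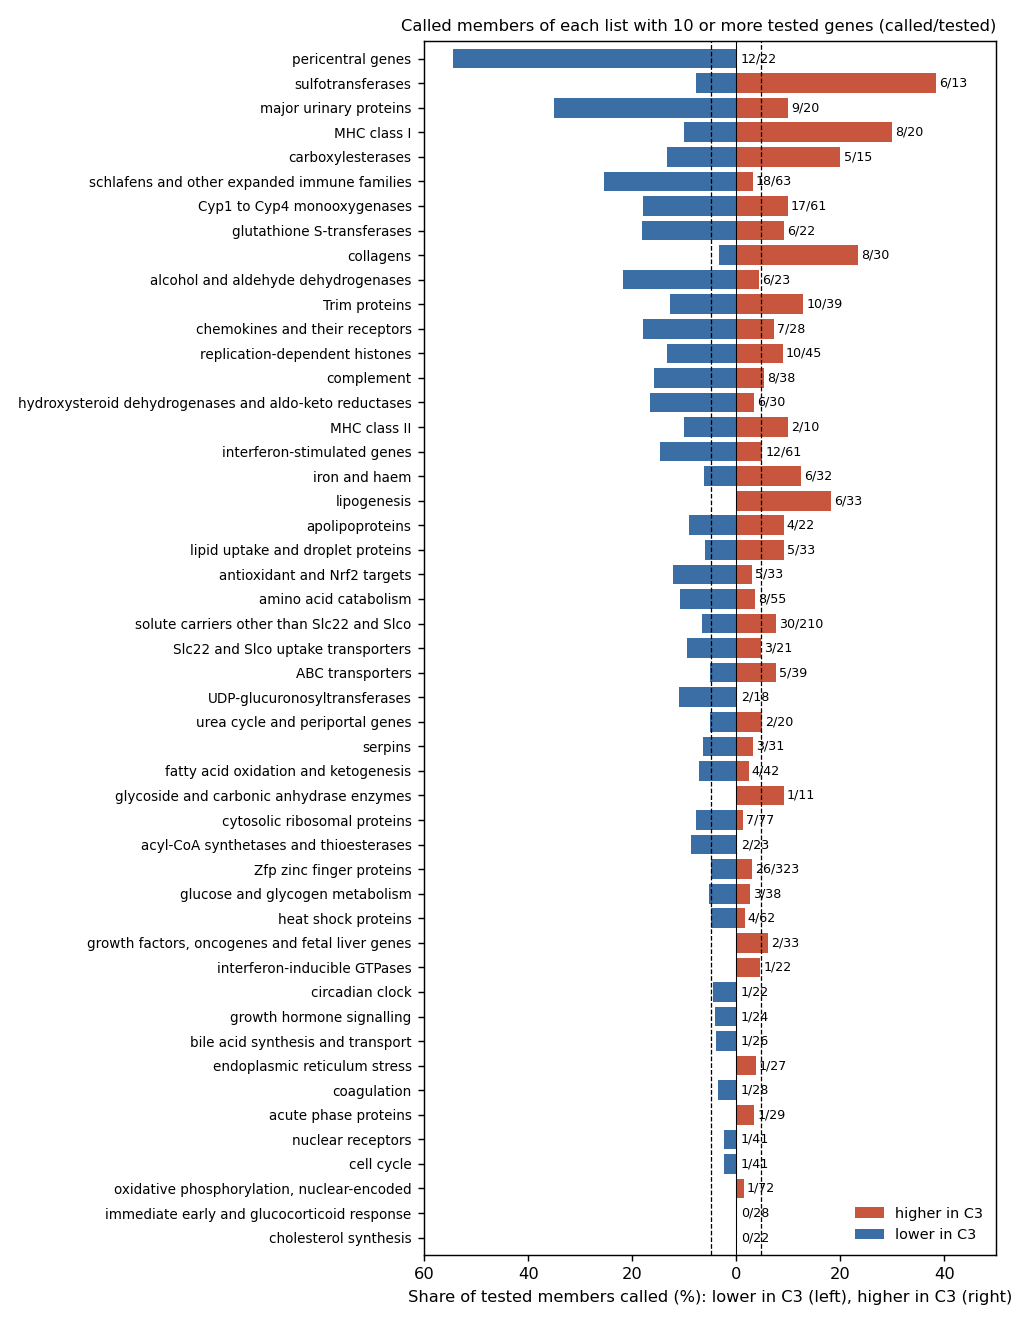
Share of the tested members of each gene list that was called in female livers, with the members higher in C3 to the right and those lower in C3 to the left. Dashed lines mark the shares over all autosomal genes, 4.68% higher and 4.83% lower, and the pericentral list reaches 54.5% on the lower side alone.

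Genes of the lipogenesis list were higher in C3 where they were called, 6 of 33 (18.2%, beside 9.5% of all autosomal genes), with a list median of 0.59. These were Elovl5 (1.08, SE 0.18), the desaturase Fads2 (0.78, SE 0.12), Elovl2 (0.78, SE 0.10), the regulatory protein Insig2 (0.74, SE 0.10) and, named after their values were seen, Acaca (0.82) and Agpat9 (1.55). Scd1, the stearoyl-CoA desaturase, measured 1463, 1718, 2980.5, 6263 and 2073 CPM in B6 and 16274, 7301, 4299.7, 7166 and 13831 CPM in C3. B6 replicate 4 lay above C3 replicate 3, and the log2 difference of 1.80 (SE 0.38) missed the threshold (adjusted p = 0.0012). The count of the list changed with that liver, to 14 members without B6 replicate 4, and it was 3 with the female libraries fitted alone. Fasn had 0.97 (SE 0.24) and an adjusted p of 0.0048. None of 22 genes of cholesterol synthesis was called by edgeR, DESeq2 or limma, 8 had an unadjusted edgeR p under 0.05, and 3 were called without B6 replicate 4. Their median log2 difference was 0.269.

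Among genes of fatty acid oxidation 4 of 42 were called (9.52%, against 9.5% of all autosomal genes), 3 of them lower in C3. The list median was 0.088, with 26 genes above 0 and 15 below. Cyp4a14, an omega-hydroxylase, measured 904, 728, 879.6, 568 and 504 CPM in B6 and 24.7, 51.3, 67.6, 35.2 and 36.2 CPM in C3, without overlap (log2 difference -3.90, SE 0.64, edgeR adjusted p = 0.0001). The pantetheinase Vnn1 was 3.60-fold lower in C3. Ppara, the receptor that induces many genes of the list, had 0.36 (SE 0.12), and Cpt1a and Ehhadh had 0.33 and 0.03. Fgf21, a hormone of the fasted liver, was the called gene that was higher, with 0.448, 0.544, 0.691, 0.934 and 0.173 CPM in B6 and 16.9, 4.14, 9.77, 14.8 and 10.3 CPM in C3 (log2 difference 4.32, SE 0.45). Pparg, the receptor that drives fat storage, measured 8.16, 6.66, 15.4, 9.26 and 5.59 CPM in B6 and 0.429, 0.389, 0.625, 0.343 and 0.265 CPM in C3, and was the only called member of 41 nuclear receptor genes (log2 difference -4.29, SE 0.26, edgeR adjusted p = 3.5e-10). Lower with it were Fitm1 (-2.43, SE 0.21), which helps to form lipid droplets, and the thioesterase Acot11 (-2.93, SE 0.15), whereas the fatty acid-binding protein Fabp5 (2.17, SE 0.39) and the lipoprotein receptor Scarb1 (0.57, SE 0.06) were higher. The fatty acid transporter Slc27a1 (-0.72) and the medium-chain acyl-CoA synthetase Acsm3 (-0.63) were lower too. Of 22 apolipoprotein genes 4 were called (18.2%). Apoa4, found on intestinal and hepatic lipoproteins, measured 121, 142, 162, 280.3 and 147 CPM in B6 and 1376, 608, 983, 678 and 624 CPM in C3, a log2 difference of 2.40 (SE 0.22), and Apol7a (-0.64) was lower. Apol11b was at least 6.46-fold lower, with no C3 liver above 3 counts.

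Major urinary proteins are lipocalins that the liver secretes and that carry pheromones in urine. Of 20 genes 9 were called (45%, beside 9.5% of all autosomal genes), 2 higher and 7 lower in C3. The list median was -1.758. Mup3, which had the highest CPM of the family in these females, measured 3518, 2749, 2620.4, 2568 and 2769.7 CPM in B6 and 1664, 1371, 1666, 1752 and 1609 CPM in C3, without overlap (log2 difference -0.73, SE 0.11, edgeR adjusted p = 4.1e-05). Mup20, or darcin, measured 95.4, 67.9, 76.6, 63.4 and 130.1 CPM in B6 and 11.2, 7.91, 6.67, 14.4 and 10.9 CPM in C3, so that it fell by 3.02 on the log2 scale. Mup9 was the reverse, with 93.7, 15.7, 60.6, 119 and 44.2 CPM in C3 and 0.299, 0.392, 0.104, 0.137 and 0.288 CPM in B6, a log2 difference of 8.08 (SE 0.73). Summed over the 20 genes, expression was 2754 to 4312 CPM in B6 and 1561 to 2156 CPM in C3. Most Mup genes are near-identical copies, Mup11 and Mup15 also overlap other loci on their strand, and the values of single copies are uncertain.

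Of 38 complement genes 8 were called (21.1%, against 9.5% of all autosomal genes), 6 lower in C3, and the list median was 0.002. Of these 6, 3 were the C1q subunits C1qa, C1qb and C1qc, which macrophages make and which adjoin on chromosome 4. C1qa also counts among the 7 Kupffer cell markers, of which 4 were called, all lower in C3, and the part of these cells was not tested. C4b measured 924, 1559, 1191, 1040.3 and 1245 CPM in B6 and 269.8, 306, 362, 336 and 216 CPM in C3, with a log2 difference of -1.93 (SE 0.14, edgeR adjusted p = 4.1e-09), while its near copy C4a had 0.93 (SE 0.24) and was not called. Cfhr2 measured 453 ± 96 CPM in B6 and 116 ± 26.9 CPM in C3, a log2 difference of -1.90 (SE 0.06). The central component C3 had a log2 difference of -0.11 (SE 0.07) and was not called. In coagulation F12 alone of 28 genes was called (-0.76, SE 0.05), and among 29 acute phase genes Apcs alone, the serum amyloid P component. These shares of 3.57% and 3.45% rest on 1 call each, and nothing is read from them against 9.5%. Apcs measured 147, 102, 47.3, 94.2 and 65.8 CPM in B6 and 297, 381, 401, 396 and 235 CPM in C3, a log2 difference of 2.04 (SE 0.19). Of 31 serpins 3 were called (9.68%), Serpina12 higher (2.30, SE 0.24) and Serpinb1a (-1.78, SE 0.28) and Serpine2 (-1.43, SE 0.25) lower. In iron and haem metabolism 6 of 32 were called (18.8%), with Trf, the iron exporter Slc40a1 (0.60) and Alad of haem synthesis (1.05) higher and Hfe (-0.64) lower.

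Markers of other cell types were examined beside these lists, and their part in the results was not tested. Of 7 autosomal Kupffer cell markers, the resident macrophages of the liver, 4 were called, all lower in C3. That was 57.1%, beside 9.5% of all autosomal genes, and the marker lists are too short for such shares to be compared. Csf1r, the receptor for macrophage colony-stimulating factor, measured 109, 115, 86, 75.1 and 96.7 CPM in B6 and 43, 54.5, 71.7, 37.2 and 41.3 CPM in C3, without overlap (log2 difference -0.91, SE 0.09, edgeR adjusted p = 4.5e-07). Adgre1, which encodes F4/80, measured 50.6, 63, 26.6, 26 and 31.4 CPM in B6 and 11.7, 19.6, 40.5, 13.5 and 14.2 CPM in C3, and C3 replicate 3 lay inside the B6 range (log2 difference -0.94, SE 0.15). Clec4f (-0.55, SE 0.08) and the complement subunit C1qa (-0.66, SE 0.11) were lower, and Cd5l (-0.27), Timd4 (-0.26) and Marco (-0.92) were not called. The summed level was 443 to 606 CPM in B6 and 299 to 455 CPM in C3, with 4 B6 livers above all C3 livers. The number called was 4 whichever liver was left out, but 2 with the female libraries alone and 1 without the pool term. Stellate cell markers summed to a median of 547.5 CPM in B6 and 402.1 CPM in C3, without overlap, with none of 6 called by edgeR (4 at an unadjusted p under 0.05, and 1 called by DESeq2), and endothelial markers to 414 to 493 and 365 to 422 CPM with Lyve1 called (-0.98, SE 0.19). T and NK cell markers, at 2.36 to 4.21 CPM in B6 and 1.38 to 2.23 CPM in C3, included Klrb1c (-3.04, SE 0.49), a gene whose product differs between inbred strains. B cell markers were at 2.24 to 4.46 and 1.71 to 2.52 CPM with none of 4 called (1 at an unadjusted edgeR p under 0.05), and neutrophil markers at 1.48 to 2.42 and 1.97 to 4.46 CPM with none of 3 (1 at an unadjusted edgeR p under 0.05). Sox9 among 5 cholangiocyte markers (0.85, SE 0.17) and Cela1, the acinar marker tested (0.61, SE 0.12), were higher in C3 with overlapping ranges. None of the 3 mesothelial markers, the erythroid marker Slc4a1 or the adipocyte marker Cfd was called by edgeR or DESeq2, with an unadjusted edgeR p under 0.05 for 1 mesothelial marker and for Slc4a1, and Cfd was at 0 in all 10 livers.

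Class I histocompatibility genes were called for 8 of 20 (40%, beside 9.5% of all autosomal genes). H2-K1 was lower and genes of the Q region were mostly higher. H2-K1, a classical antigen-presenting molecule, measured 1199, 1214, 1146, 1075 and 1232 CPM in B6 and 799, 665, 644, 745 and 611 CPM in C3 (log2 difference -0.68, SE 0.09, edgeR adjusted p = 8.3e-06). H2-Q1 measured 5.15, 9.49, 5.08, 7.78 and 7.27 CPM in B6 and 87.4, 84.5, 72.8, 51.3 and 57.3 CPM in C3, a log2 difference of 3.36 (SE 0.27). H2-Q4 (1.45) and H2-Q2 (4.91) were higher and H2-Q5 (-4.73) lower, and the peptide transporter subunit Tap2 was higher (0.52). These genes are polymorphic and alike, so the counts of single loci are uncertain. Of 10 class II genes 2 were called (20%), H2-Ea-ps and H2-DMb1 (-2.19, SE 0.30), and 4 were without B6 replicate 2. H2-Eb1 (-2.07), H2-Aa (-1.82), H2-Ab1 (-1.39) and Cd74 (-1.23) had adjusted p-values of 0.001, 0.0018, 0.018 and 0.0076. Their list summed to 134 to 315 CPM in B6 and 61.4 to 99.9 CPM in C3, without overlap.

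Of 61 interferon-stimulated genes 12 were called (19.7%, beside 9.5% of all autosomal genes), 3 higher and 9 lower in C3. A run of 7 neighbouring genes of the Ifi200 family, DNA sensors and relatives, was called whole at chr1:175522088-175843177 (mm9). Ifi204 measured 12.7, 14.7, 21.7, 29.3 and 29.5 CPM in B6 and 2.97, 2.38, 3.10, 4.20 and 3.89 CPM in C3, a log2 difference of -2.57 (SE 0.15, edgeR adjusted p = 2.5e-10). Mndal (-0.999), Mnda (-1.10), AI607873 (-2.27), Pyhin1 (-1.96) and Pydc4 (-4.31) were lower with it and Pydc3 was higher (1.76). Ifi202b, at chr1:175892700-175912975 beyond this run, had no count in B6 and 3.56, 4.03, 5.30, 4.86 and 5.50 CPM in C3, at least 57.9-fold higher. Elsewhere in the list Bst2 (-1.09), Parp9 (-0.59) and Samd9l (-0.66) were lower. Of 22 interferon-inducible GTPases Gbp11 alone was called (4.55%), and nothing is read from 1 call against 9.5%. The list median was -0.277, with 18 genes below 0 and 4 above. Gbp11 measured 44, 12.4, 7.78, 22.2 and 28.4 CPM in B6 and 151, 88.7, 114, 215 and 132 CPM in C3 (log2 difference 2.71, SE 0.44).

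Tripartite-motif genes, many of them restriction factors against viruses, were called for 10 of 39 (25.6%, beside 9.5% of all autosomal genes). A run of 6 neighbours on chromosome 7 was called whole at chr7:109826099-111485131. Trim5 measured 6.02, 4.72, 5.22, 6.29 and 4.50 CPM in B6 and at most 0.0589 CPM in C3, at least 65.1-fold lower, and Trim34a fell by 1.95 on the log2 scale. Trim34b went the other way, with 2.01, 1.92, 3.06, 2.66 and 2.77 CPM in C3 and 0.107, 0.0435, 0.138, 0.0550 and 0.0288 CPM in B6 (log2 difference 5.11, SE 0.30), and Trim6 (2.27) and Trim68 (1.04) were higher too. Nearby Trim30d (-4.20) and Trim30a (-0.88) were lower. In a list of schlafens, C-type lectins, killer lectins and inflammasome receptors, 18 of 63 were called (28.6%), 16 of them lower in C3. The list summed to 890 to 1074 CPM in B6 and 549 to 715 CPM in C3. Nlrp12, a regulator of inflammation in myeloid cells, measured 38.5, 28.9, 24.4, 17.7 and 21.4 CPM in B6 and 0.165, 0.0915, 0.463, 0.286 and 0.589 CPM in C3, a log2 difference of -6.27 (SE 0.31). Clec2d (-1.36) and Clec1b (-0.55) were lower as well. Named after their values were seen, the fungal glucan receptor Clec7a (-1.75), the flagellin sensor Naip5 (-1.03), the schlafens Slfn8 (-2.27) and Slfn9 (-1.85) and the lipopeptide receptor Tlr1 (-1.86) were also lower, while its close paralogue Tlr6 was higher (2.18). Chemokines and their receptors were called for 7 of 28 (25%), and for 4 without C3 replicate 1. Ccl27a (-3.26) and Ccl6 (-0.86) were lower and Ccl9 (0.81) higher. The B cell attractant Cxcl13 (-2.89) and the interferon-induced Cxcl10 (-1.26) were lower and the atypical receptor Ackr1 higher (3.23), these 3 named after their values were seen.

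**Figure D4:**
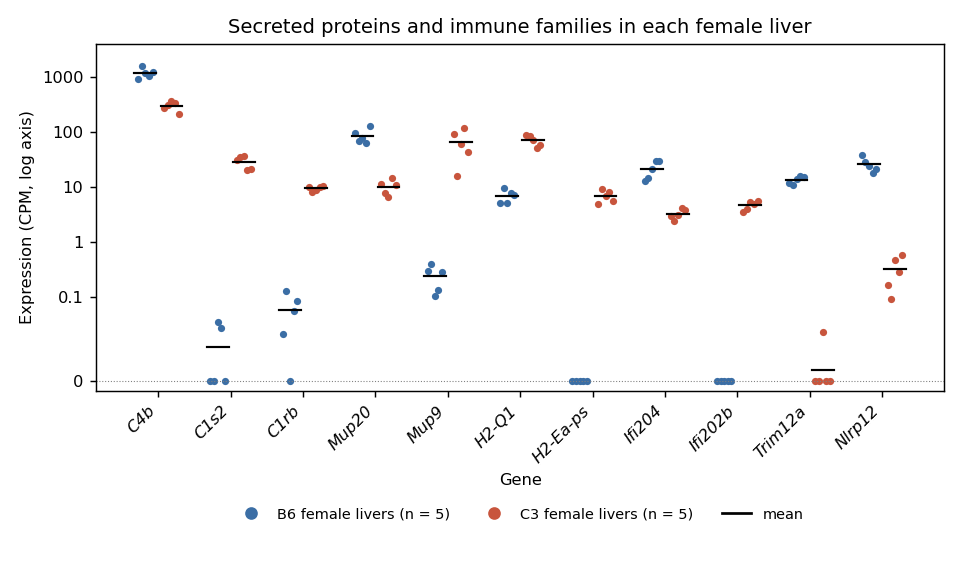
Expression in CPM (log axis) of 11 genes of secreted proteins and immune families in each of the 5 B6 and 5 C3 female livers, with 1 point a liver and libraries without a count drawn on the line marked 0. C1s2, C1rb, Mup9, H2-Ea-ps, H2-Q1 and Ifi202b lie higher in C3, and C4b, Mup20, Ifi204, Trim12a and Nlrp12 lower, none with overlapping strains.

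Collagen genes were called for 8 of 30 (26.7%, beside 9.5% of all autosomal genes), 7 of them higher in C3. Among these were Col15a1 (1.41, SE 0.26), Col5a3 (1.07, SE 0.22) and Col6a5 (3.61, SE 0.28), and Col5a2 was lower (-1.08, SE 0.20). The count was 5 without B6 replicate 1 and without C3 replicates 1, 2 or 5, and the list median was -0.177. Other lists were read beside the 9.5% of all autosomal genes, and those of 22 to 41 genes are too short for a difference from it to be read from their counts. Called were 1 of 72 nuclear genes of oxidative phosphorylation (Ndufa12, 0.61), 1 of 41 cell cycle genes (E2f1, -1.13), 1 of 27 genes of endoplasmic reticulum stress (Atf5, 0.71) and none of 28 immediate early and glucocorticoid-responsive genes. In the last list 8 genes had an unadjusted edgeR p under 0.05, DESeq2 called 1 and limma none. In the circadian list Noct alone of 22 was called, and in the growth hormone list Nox4 alone of 24. Noct, a rhythmic phosphatase of dinucleotide cofactors, measured 23.6, 77.8, 17.9, 9.84 and 14.1 CPM in B6 and 0.660, 1.03, 0.370, 0.571 and 0.353 CPM in C3 (log2 difference -5.41, SE 0.71), and the core genes Arntl, Clock and Per2 had -0.17, -0.02 and 0.19. Nox4, a NADPH oxidase, measured 36.3, 28.6, 28.7, 24.1 and 38.8 CPM in B6 and 4.82, 7.96, 8.04, 17.1 and 11.6 CPM in C3 (log2 difference -1.62, SE 0.21), and Igf1 and Ghr had 0.29 and -0.04. Among growth factors, oncogenes and fetal liver genes Fgf21 and the glypican Gpc1 (1.02, SE 0.18) were called of 33.

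Glucose and glycogen metabolism had 3 of 38 called (7.89%, beside 9.5% of all autosomal genes), the hexokinases Hk2 (-1.05) and Hk3 (-1.51) lower and Pgd of the pentose phosphate pathway higher (0.60), and 1 without any of B6 replicates 1 and 5 or C3 replicate 5. Heat shock proteins had 4 of 62 (6.45%), with Hspb1 (-1.41), Hspa4l (-0.81) and Hspa12a (-0.91) lower and Dnajc10 (0.76) higher, and 2 without any of B6 replicates 2 and 3 or C3 replicates 3 and 5. Antioxidant and Nrf2 target genes had 5 of 33 (15.2%), with Ephx1 (-0.66) lower beside the glutathione S-transferases and Sod3 higher (0.71), and 3 without C3 replicate 1. Zinc finger genes of the Zfp series had 26 of 323 (8.05%). Cytosolic ribosomal protein genes had 7 of 77 (9.09%), with Rps3a1 (-1.95), Rpl21 (-1.03), Rplp1 (-1.06) and Rps18 (-0.76) lower, and replication-dependent histone genes 10 of 45 (22.2%). Among the histones Hist1h4a (3.28) was higher and Hist1h1c (-0.79) and Hist2h2ac (-1.30) lower. Hist1h2al measured 11.2, 9.01, 7.39, 5.71 and 6.45 CPM in C3 and 0.0854, 0.0435, 0.0346, 0.0550 and 0.0288 CPM in B6. Both families have many processed pseudogenes or near-identical copies, and their single values are uncertain.

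Called genes were spread over all autosomes. The share was highest on chromosome 4 (14.1% of 857 tested), followed by chromosomes 17 (12.6%), 12 (12.1%), 6 (11.8%) and 13 (11.4%), and lowest on chromosome 18 (5.03% of 358). There were 40 runs of 3 or more neighbouring tested genes that were all called, which held 146 genes or 11.6% of those called, and in 15 of the runs (37.5%) every gene moved the same way. At chr12:29360072-31596477 a run of 7 ran from Adi1 (-0.56) over Trappc12, Tssc1, Pxdn, Sntg2 and Tmem18 to the phosphatase Acp1 (-1.28), 3 higher and 4 lower. At chr4:136106448-136454759 the 3 subunits of complement C1q, C1qa, C1qb (-0.79) and C1qc (-0.79), lay beside Ephb2 (-2.77), all lower, and Kdm1a (0.51), higher. At chr12:109544480-109926725 Cyp46a1, higher in C3, lay beside Hhipl1 (2.15), higher, and Eml1 (-1.47) and Evl (-1.01), lower. Of 806 windows of 2 Mb with 5 or more tested genes, 289 (35.9%) held no called gene.

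Most strain differences of the females had the same sign in males. Of the 1260 genes called in females 1221 (96.9%) differed in the same direction in males, 837 of them were called there too, and 2 were called in the opposite direction. In males 1291 autosomal genes (9.74%) were called. The difference between the sexes was tested itself, as an interaction, and passed for 52 autosomal genes (0.392%), of which 21 were called in females. Of the 421 genes called in females and not in males only 7 passed that test. Each sex had its own room, and its effect cannot be told apart from that of the room.

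The 2 genes called in opposite directions were Mup21 and Ly6a. Mup21 measured 22, 11.9, 16.2, 14.6 and 10.1 CPM in B6 females and 3.37, 2.58, 2.80, 3.34 and 3.86 CPM in C3 females, but 304 ± 131 CPM (mean ± SD, n = 5) in B6 males and 872 ± 112 CPM in C3 males. Its log2 strain difference in females minus that in males was -3.84 (SE 0.36, edgeR adjusted p = 4.3e-06). Ly6a, or Sca-1, a surface protein of stem cells, endothelium and lymphocytes, measured 19.2, 15.8, 9.50, 17.6 and 29 CPM in B6 females and 3.96, 6.43, 4.93, 8.20 and 5.09 CPM in C3 females, and 8.06 ± 2.86 and 19.9 ± 6.20 CPM in males (interaction adjusted p = 8.6e-05, edgeR). Meg3, an imprinted long noncoding RNA on chromosome 12, measured 6.60, 6.20, 7.53, 6.05 and 9.80 CPM in B6 females and 0.462, 0.618, 0.579, 1.09 and 0.471 CPM in C3 females, and 1.70 ± 0.830 and 1.82 ± 0.494 CPM in males (interaction adjusted p = 4.2e-05, edgeR). Meg3 overlaps another gene on its strand. Its neighbour Rian was at -3.16 in females and 0.46 in males. Adh6-ps1 fell by 6.59 in females and had -1.53 in males, and Cyp2a22 had 6.90 and 1.53, so that both strain differences were larger in females (interaction adjusted p = 4.3e-07 and 1.7e-06, edgeR). Tpmt, with 1.73 and 0.69, and the zinc finger locus 2610305D13Rik, with 4.82 and -0.54, did the same. The strain difference was larger in males for Lgals1 (-0.89 and -3.09), Gm13152 (-3.03 and -5.68), Ccl27a (-3.26 and -4.94) and Vnn1 (-1.85 and -5.26). Of the 22 pericentral genes 8 were called in males, 7 of them also called in females and lower in C3 in both.

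**Figure D5:**
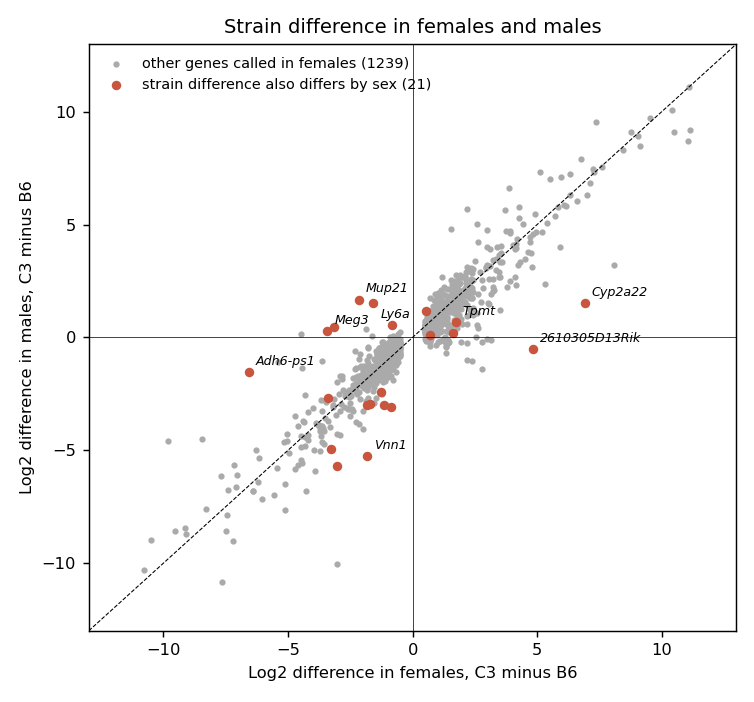
Log2 difference between C3 and B6 in males (vertical axis) against that in females (horizontal axis) for the 1260 autosomal genes called in females. Grey points lie along the diagonal, and the 21 genes that passed the interaction test are coloured, with Mup21 and Ly6a in the upper left, negative in females and positive in males.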

How the data were processed

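Ribosomal RNA-depleted stranded libraries from left lateral lobe RNA of 20 mice were sequenced in 3 pools. Per the paper's methods, the authors trimmed reads with Cutadapt 1.9.1, aligned them to mm9 with STAR 2.5.1b and counted pairs per RefSeq gene with featureCounts 1.5.0-p1, leaving out pairs that mapped to several places or genes. The deposited tables hold raw counts and TPM (abundance scaled for gene length by the authors), and their columns of symbols and gene IDs carry exchanged headers. Counts were used as deposited, and TPM only as an alternative unit. Groups came from the labels.

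The counts were fitted with edgeR 4.0.16 in R 4.3.3 (TMM, filterByExpr, quasi-likelihood, group plus pool, 20 libraries), with Benjamini-Hochberg adjustment over 13704 genes. Called means an adjusted p under 0.001 and a log2 difference over 0.5. CPM values are counts scaled to the library total, without TMM factors. DESeq2 1.42.0 and limma 3.58.1 served as alternatives, beside other scalings, filters, samples and thresholds. On simulated counts for these genes 76 of 99 genes changed 2-fold and 90 of 99 changed 4-fold were recovered, with 0 false calls among 13372. The simulated counts held no pool effect and no other difference of strain or sex, so that these rates need not hold for the real libraries. Limits from 3 counts cover counting error only. Library totals are given above.

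The comparison and gene lists were chosen with earlier results of these data known. Genes were named by rule: the 12 largest non-overlapping differences each way at 1 CPM or more, the 4 called members of a list with the highest CPM and its highest-CPM member, all called members of lists with 5 or fewer, the 15 called genes with the highest CPM, the 10 with the smallest interaction p, the 6 longest runs and the cell markers. Named outside it, after their values were seen, were Cyp1a2, Cyp2c39, Cyp2c44, Lhpp, Rhbg, Slc13a3, Sult2a1, Sult2a6, H2-Q2, H2-Q5, Rian, the genes so marked in the text, and uncalled relatives given for comparison. Some genes that the rule picks are not reported here.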

Additional observations from a re-analysis of the deposited data

Results flagged for a closer look

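In 24 of the 500 groups of 5 female livers examined, taken over the genes named above, the highest or lowest liver stood apart from the others by more than 0.71 of the range of its group, and chance gives about 1 such group in 20. All values here are CPM. In B6 replicate 5 the high values were Apol11b at 0.951, C1qb at 71.8, H2-Ab1 at 81.4, Pydc3 at 0.548 and Tcf7 at 3.78. These were 5 of the 24. C3 replicate 4 was high for Adh6-ps1 (0.686), Ccl27a (0.943), Col5a2 (5.57) and Meg3 (1.09). C3 replicate 3 was high for Adgre1 (40.5), Klrb1c (0.208) and Ugt3a1 (54.5), and C3 replicate 1 for Fitm1 (1.85), Fmo4 (28.8) and Nkd1 (4.95). C3 replicate 2 was high for Gsta2 (9.10) and Slc16a10 (98.8). In the other B6 livers, Mup3 was high in replicate 1 (3518), Noct in replicate 2 (77.8) and Apoa4 in replicate 4 (280.3). B6 replicate 3 was high for Acsm3 (135) and Gstm1 (1261) and low for Serpina12 (3.80) and 4930481A15Rik (3.56).

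For 13 genes named above the strain difference itself differed between the sexes by the edgeR interaction test. The log2 difference between C3 and B6 in females minus that in males was -5.05 for Adh6-ps1, -3.84 for Mup21, -3.71 for Meg3, -3.62 for Rian, -3.09 for Ly6a and -0.69 for Cyp2c44. It was 5.37 for Cyp2a22, 5.35 for 2610305D13Rik, 3.41 for Vnn1, 2.65 for Gm13152, 2.21 for Lgals1, 1.68 for Ccl27a and 1.05 for Tpmt.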

How the results depend on the processing

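No named gene that was called changed direction, whereas uncalled genes near 0, among them Axin2, Clock, Per2 and Tbx3, changed sign under some settings. The balance of higher and lower calls turned without B6 replicate 4 (633 higher, 612 lower), C3 replicate 2 (603 and 586) and C3 replicate 5 (578 and 567). The median of 0.02 went to -0.014 under upper-quartile scaling, to -0.037 and -0.048 under limma on TPM, and to -0.003 and -0.002 within pools 1 and 3. With TMM factors, chosen after seeing the data, livers did not overlap for 1709 autosomal genes in place of 1749, and for 1012 called genes in place of 1011. The count of 1260 stayed within 1.5 times under RLE size factors (1260), upper-quartile scaling (1258, of which 548 higher), no filter (1292), a stricter filter (1156), DESeq2 (1546), limma on log2(TPM + 1) (1112) and log2(TPM + 0.1) (1281) and the 10 female libraries alone (869), where the genes in runs fell to 86. Without the pool term it was 798 (395 higher, 403 lower, 169 list members, 68 in runs). Tested against the fold threshold itself (glmTreat) it was 515 (254, 261, 120 and 33). Within pool 1 it was 53 (21, 32, 24 and 0) and within pool 3 58 (24, 34, 21 and 0), with 2 livers a strain, and the 1 liver a strain of pool 2 allowed no test. At an adjusted p under 0.05 it was 2084 (966, 1118, 471 and 350), and the interaction count went from 52 to 291. Leaving out each liver gave 1121 to 1245 genes, 540 to 633 higher, 566 to 627 lower, 243 to 298 list members and 106 to 144 in runs. Of 215 named genes called, 42 lost the call without at least 1 liver. Beside those given above, Cela1, Ces1g, Col15a1, Col5a3, Cxcl10, Hk2, Hspa4l, Lgals1, Lyve1, Pgd, Slc13a3, Slc22a7, Sod3 and Sox9 lost it without any 1 of 6 to 8 livers. Akr1c14, Aldh1b1, Apol7a, C1qc, Ccl6, Clec1b, Col5a2, Fabp5, Fmo4, Ftcd, Gstm1, Hspa12a, Kdm1a, Pxdn, Pydc3, Serpine2, Tap2, Tlr1, Tmem18 and Trim68 lost it without 1 of at most 5. The male count was 1087 from the 10 male libraries alone. With the replicate number as a block the count was 1196, of which 1158 genes were shared, and that of the interaction 37. The numbers did not pair the livers, since the correlations of same-numbered deviations ran from -0.17 to 0.56, or from -0.218 to 0.281 with pool removed. Depth limits the genes under about 0.104 CPM, where 3 counts or fewer were expected.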
